A study of Mus musculus with 8 samples.

Results

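The 10 transcription factors Tcf7, Lef1, Satb1, Bach2, Foxo1, Id2, Id3, Bcl11b, Foxp3 and Ikzf2, which mark states of T cells, were followed through the T cells and natural killer (NK) cells of mouse lung adenocarcinomas. They were taken by gene symbol. All 10 have a row among the 32286 gene features of the 4 single-cell libraries, and they were read in 7398 T and NK cells of 23769 cells kept in all. Tumours in both groups came from KPC mice, a lung adenocarcinoma model in which intratracheal lentivirus starts the tumours, and cells were freed with collagenase IV and DNase before dead cells were removed. In the group labelled mA1, CRISPR activation (CRISPRa) was directed to Malat1 in the tumour cells with dRNAs from the time of initiation. In the group labelled Con the same system carried dRNAs to Tomato. The largest tumours were taken 16 weeks after initiation, 4 per group, and were spread over 2 libraries per group with 2 hashtag antibodies in each. Each hashtag of a library is counted here as 1 tumour. Whether those tumours came from separate animals is not given, so p-values measure the spread between these 8 samples, which share a library in pairs.

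Tcf7 (TCF-1) and Lef1 are HMG-box factors of the Wnt pathway that build and keep T cell identity and are turned down as T cells differentiate. Satb1 organises chromatin, Bach2 represses effector programmes, and Foxo1 drives the homing genes of resting lymphocytes. Id2 and Id3 have no DNA-binding domain and hold E proteins away from E-boxes; Id2 goes with effector and innate lymphocytes, Id3 with naive and memory cells. Bcl11b commits precursors to the T lineage, Foxp3 defines regulatory T cells, and Ikzf2 (Helios) is an Ikaros-family factor of regulatory T cells and of some unconventional T cells.

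Promoter sequence is shown for 4 members. Of these, 2 were chosen because they are paralogs with unlike patterns below, Id2 and Id3. The other 2, Bach2 and Bcl11b, were chosen because they carry the letters of a TCF/LEF site before the annotated start shown. For both, that start was picked for the match and lies inside the span of the gene given below, not at its outer end. Each is the 250 bases before 1 annotated start of the gene in RefSeq on GRCm38.p6 (mm10), 5′ to 3′ on the strand of the gene. For Id2 and Id3, capitals mark the E-box CANNTG. For Bach2 and Bcl11b, capitals mark CTTTGA, the TCF/LEF motif, on either strand.
Id2, chr12:25096093-25096342, minus strand: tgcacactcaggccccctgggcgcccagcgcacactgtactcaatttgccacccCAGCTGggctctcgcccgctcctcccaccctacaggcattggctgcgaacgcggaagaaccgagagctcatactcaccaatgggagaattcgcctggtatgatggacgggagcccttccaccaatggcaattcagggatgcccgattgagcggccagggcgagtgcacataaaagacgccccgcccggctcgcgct
Id3, chr4:136143572-136143821, plus strand: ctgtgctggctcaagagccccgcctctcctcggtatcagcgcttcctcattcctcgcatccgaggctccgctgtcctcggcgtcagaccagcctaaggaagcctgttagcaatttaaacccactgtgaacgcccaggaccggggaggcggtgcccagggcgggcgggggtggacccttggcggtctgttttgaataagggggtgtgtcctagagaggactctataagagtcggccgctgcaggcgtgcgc
Bach2, chr4:32417185-32417434, plus strand: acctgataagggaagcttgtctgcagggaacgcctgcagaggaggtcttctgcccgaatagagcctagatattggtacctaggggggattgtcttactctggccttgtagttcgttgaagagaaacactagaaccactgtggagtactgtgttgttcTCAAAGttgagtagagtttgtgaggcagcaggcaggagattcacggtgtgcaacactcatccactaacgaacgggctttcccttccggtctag
Bcl11b, chr12:108003415-108003664, minus strand: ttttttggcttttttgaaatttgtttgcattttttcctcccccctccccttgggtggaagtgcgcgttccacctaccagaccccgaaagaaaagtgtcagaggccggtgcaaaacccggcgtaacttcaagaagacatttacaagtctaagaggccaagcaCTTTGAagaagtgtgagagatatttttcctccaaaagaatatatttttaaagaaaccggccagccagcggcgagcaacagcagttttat
Id2 held 1 E-box and Id3 held 0. An E-box was present in 66.2% of 32851 RefSeq promoter windows of the same length, and CTTTGA in 13.8%. Lef1 held 2 copies of CTTTGA before 1 of its 4 annotated starts. The forkhead letters GTAAACA, found in 3.2% of windows, and the AP-1-like letters TGANTCA, found in 6.7%, were in no window of any of the 9 members with an entry. A match is a description of letters and not of binding. The genes lie on chromosomes 11 (Tcf7, 52246527-52283383), 3 (Lef1, 131110297-131224357; Foxo1, 52268337-52350109), 17 (Satb1, 51736187-51833290), 4 (Bach2, 32238413-32586109; Id3, 136143822-136145392), 12 (Id2, 25093799-25096092; Bcl11b, 107910403-108004145), X (Foxp3, 7579676-7595243) and 1 (Ikzf2, 69531207-69687351).

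The cells were clustered without the 10 members and named from other markers, so that no member named the class in which it is described. The 7 classes followed were naive CD4 T-like (1214 cells), naive CD8 T-like (696), activated CD4 T-like (1257), regulatory T-like (121), effector and memory CD8 T-like (668), gamma-delta T-like (409) and NK-like cells (1806). Another 989 T and NK cells stayed unnamed, which is 10.5% and 12.9% of the T and NK cells in the mA1 libraries and 15.1% and 14.4% in the Con libraries. The thresholds for names were set after the clusters were seen. The regulatory cluster led with Areg, Il1rl1, Tnfrsf4, Ctla4 and Tnfrsf9, with Foxp3 and Ikzf2 also among its 10 leading genes, and Lef1 was among those of the naive CD4 clusters. The gamma-delta clusters led with Trdc, Trdv4 and Cd163l1 or with Blk and Sox13, and the NK clusters with Klra8, Ncr1 and Prf1 or with Xcl1 and Ccl4. Median depth per cell in T and NK cells was 3173 and 3793 UMIs (unique molecular identifiers) in the mA1 libraries and 2684 and 3718 UMIs in the Con libraries. Malat1 stood at 15140 and 21625 CPM (UMIs of a gene scaled to a common library total, counts-per-million) over all cells of the mA1 libraries, and at 21117 and 21637 CPM in the Con libraries, so the targeted gene was not higher in the libraries labelled mA1. The activation is directed to tumour cells, and these values are over all cells. Con library 2 stood apart by Xist, with 1407 CPM in its T and NK cells against at most 2.41 CPM in the other 3 libraries, and Foxp3 is X-linked. Of the T and NK cells, 14 and 7 in the mA1 libraries and 4 and 15 in the Con libraries had a barcode that another library also holds.

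Across classes some members were highest in naive cells, some in effector and innate cells and some in regulatory cells, which is described by level and not tested because classes and levels come from the same cells. A level is the CPM of a gene in the UMIs summed over the cells of a class in 1 library, and the spread is over the 4 libraries. Tcf7 was highest in naive CD4 cells, at 436 and 439 CPM in the mA1 libraries and 507 and 536 CPM in the Con libraries. Its mean was 479 ± 49.9 CPM there (SD, n = 4) and 400 ± 51.1 CPM in naive CD8 cells, 2 ranges that overlapped. Effector and memory CD8 cells (268 ± 30.5 CPM) and activated CD4 cells (268 ± 54.9 CPM) came next and did not differ beyond their spread. Gamma-delta cells held 148.5 ± 47.8 CPM. NK cells (41.3 ± 6.46 CPM) and regulatory cells (32.9 ± 21.4 CPM) were lowest, with overlapping ranges. The mean of regulatory cells was 14.6 times below that of naive CD4 cells.

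Lef1 separated naive cells from the rest more sharply. It had 662 and 613 CPM in naive CD4 cells of the mA1 libraries and 591 and 740 CPM in those of the Con libraries, a mean of 651 ± 65.7 CPM. Naive CD8 cells followed at 516 ± 75.4 CPM, and every other class was at or below 162.2 CPM in every library. Unnamed cells are outside these classes. An unnamed cluster held 719 and 626 CPM of Lef1 in the mA1 libraries and 553 and 642 CPM in the Con libraries. Gamma-delta cells were lowest at 16.0 ± 2.15 CPM, 40.6 times below naive CD4 cells, and did not overlap their neighbour in the order, NK cells (51.9 ± 13.6 CPM). Tcf7 and Lef1 parted in gamma-delta cells, where Tcf7 had 148.5 CPM.

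Satb1 and Bach2 were also highest in naive CD4 cells, but both kept a level in NK cells. Satb1 had 591.5 and 496 CPM in naive CD4 cells of the mA1 libraries and 612 and 792 CPM in the Con libraries. NK cells followed the naive classes at 290 ± 16.1 CPM, above effector and memory CD8 cells at 242 ± 15.8 CPM with no overlap of the 4 libraries. Regulatory cells were lowest at 89.4 ± 48.9 CPM and overlapped gamma-delta cells (123.5 ± 41.1 CPM). Bach2 had 71.0 ± 11.3 CPM in naive CD4 cells and 54.2 ± 6.44 CPM in naive CD8 cells. It held 37.9 ± 7.81 CPM in NK cells and 7.51 ± 5.29 CPM in activated CD4 cells, and it was at 0 UMIs in regulatory cells of 3 of 4 libraries, where 3 counts would have been between 15.6 and 26.25 CPM. B cells, in which Bach2 is a known regulator, held 127 CPM.

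Foxo1 and Bcl11b varied less among the classes of T cells than Tcf7 and Lef1 did. Foxo1 ran from 117 ± 16.8 CPM in naive CD4 cells to 54.7 ± 17.05 CPM in NK cells, 2.14 times apart, and each class overlapped its neighbour in the order. Bcl11b lay between 209 ± 14.1 CPM, in effector and memory CD8 cells, and 339 ± 21.0 CPM, in naive CD4 cells, in the 6 T cell classes. It had 11.8 ± 4.35 CPM in NK cells, where all 4 libraries were at or below 16.9 CPM. No T cell class as a whole was under 183.7 CPM in any library.

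Id2 ran the other way. NK cells had 1310 and 1016 CPM in the mA1 libraries and 1002 and 1202 CPM in the Con libraries. Gamma-delta (685 ± 182 CPM), activated CD4 (655 ± 31.45 CPM) and regulatory cells (603 ± 113.5 CPM) overlapped each other, and effector and memory CD8 cells held 381 ± 92.5 CPM. Naive CD8 (118 ± 13.5 CPM) and naive CD4 cells (92.4 ± 20.3 CPM) were lowest. The mean of naive CD4 cells was 12.25 times below that of NK cells. Alveolar macrophages, a cell type outside the lymphocytes, held 230 CPM, more than naive T cells did. Id3 was low throughout. It had between 25.9 and 30.1 CPM in the naive, activated CD4 and effector and memory CD8 classes, which could not be ordered, and 3.35 ± 2.57 CPM in NK cells. The summed UMIs of Id2 per UMI of Id3 were 4.50 and 2.80 in naive CD4 cells of the mA1 libraries and 2.50 and 3.26 in those of the Con libraries, against 38.1 and 23.15 (mA1) and 22.6 and 22.8 (Con) in activated CD4 cells.

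**Figure D1:**
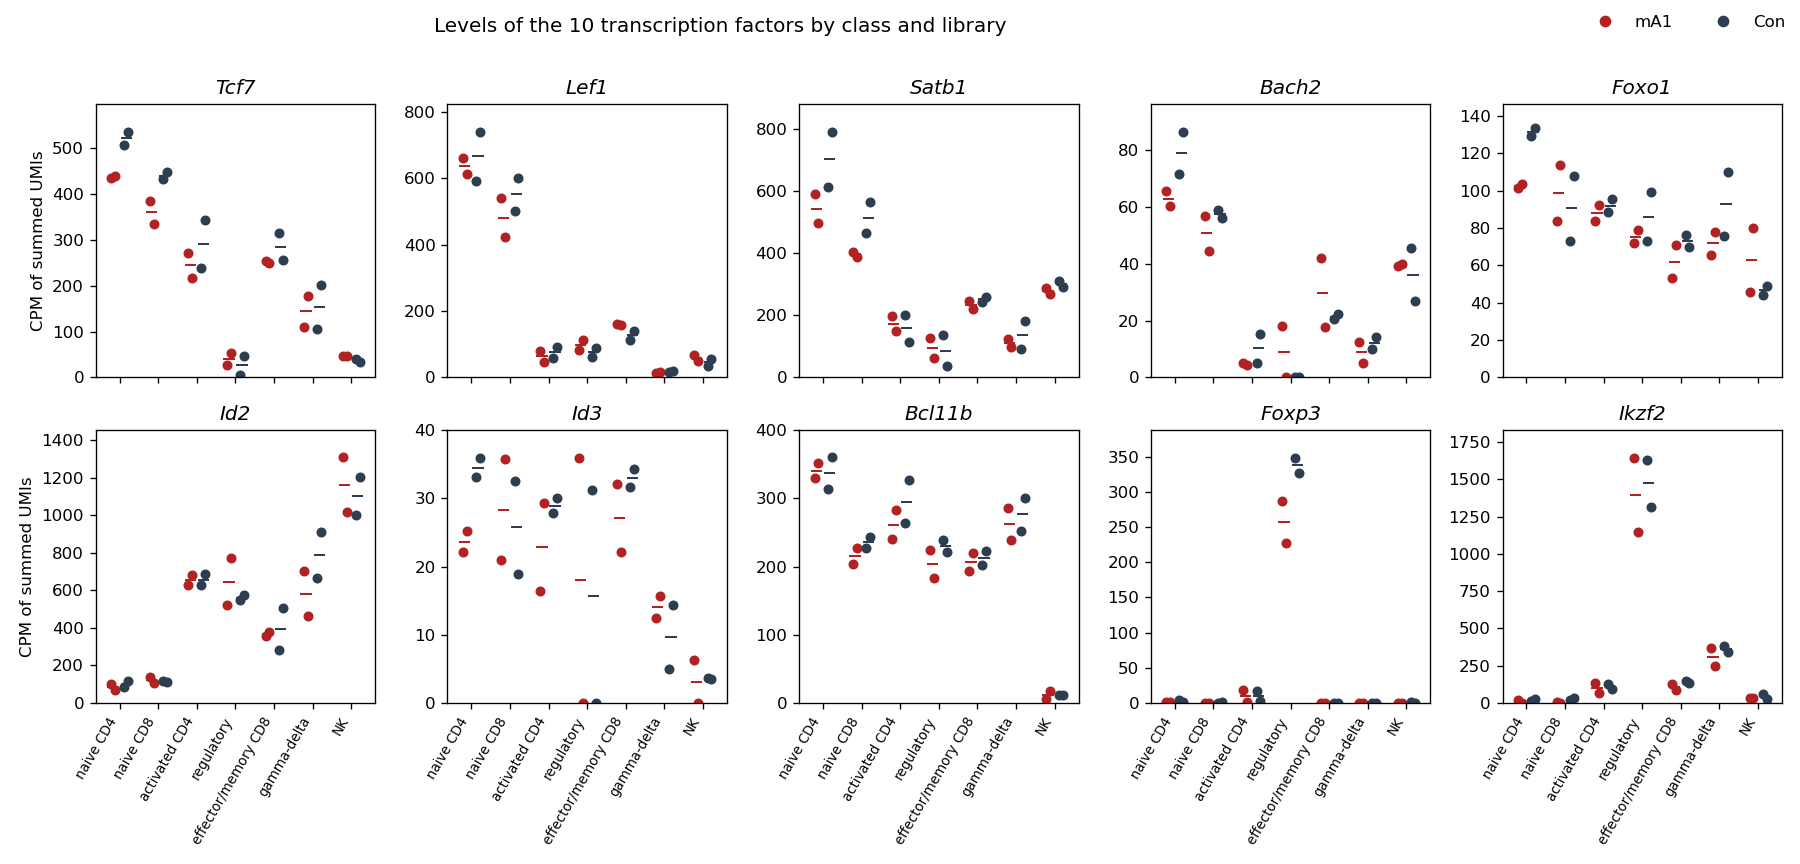
Levels of the 10 members in CPM of summed UMIs, 1 panel per gene on its own linear scale. Points are libraries, 2 per group, bars are group means, and mA1 stands left of Con in each class. Tcf7, Lef1, Satb1 and Bach2 peak in naive cells, Id2 in NK cells, and Foxp3 and Ikzf2 in regulatory cells.

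Foxp3 was highest in the regulatory class by a wide margin. It had 288 and 228 CPM in regulatory cells of the mA1 libraries and 349 and 327 CPM in those of the Con libraries, a mean of 298 ± 53.3 CPM. The regulatory class held 181 of the 276 Foxp3 UMIs of all T and NK cells in 121 of the 7398 cells, activated CD4 cells held 43, and cycling cells held 34. Effector and memory CD8 cells showed a Foxp3 UMI in 0 of 668 cells, which allows a share of up to 0.449%, and gamma-delta cells in 0 of 409, which allows up to 0.734%. Both limits are on cells with a UMI, not on cells that express the gene. NK cells, which should lack the gene, showed 1 of 1806. Within the regulatory class, 16 of 25 cells (64.0%, exact Clopper-Pearson 95% interval 42.5 to 82.0%) and 13 of 19 (68.4%, 43.45 to 87.4%) carried a Foxp3 UMI in the mA1 libraries, and 31 of 45 (68.9%, 53.35 to 81.8%) and 22 of 32 (68.75%, 49.99 to 83.9%) in the Con libraries. These intervals cover counting error only. With cells thinned to 1000 UMIs, which left out 1 shallower cell of Con library 1, the shares were 36.0% and 31.6% in the mA1 libraries and 31.8% and 31.25% in the Con libraries.

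Ikzf2 was also highest in regulatory cells and had the widest range of the 9 members detected in each class. It had 1645 and 1146 CPM there in the mA1 libraries and 1629 and 1315 CPM in the Con libraries. Gamma-delta cells ranked second, at 366 and 245 CPM in the mA1 libraries and 380.5 and 344 CPM in the Con libraries, and did not overlap effector and memory CD8 cells (126 ± 26.3 CPM). Naive CD8 cells were lowest, at 5.98 and 0 CPM in the mA1 libraries and 20.3 and 33.7 CPM in the Con libraries, with a mean 95.6 times below that of regulatory cells. They overlapped naive CD4 cells (17.3 ± 11.9 CPM), which were the lowest by UMIs per cell. In the regulatory class 81 of the 82 cells with a Foxp3 UMI also had an Ikzf2 UMI, and 33 of the 39 cells without a Foxp3 UMI did. Tcf7 was seen in 4 of the 82 cells with Foxp3 and in 9 of the 39 without it. Among activated CD4 cells, 32 carried Foxp3, and 21 of them carried Ikzf2, while of the other cells 187 carried Ikzf2 and 1038 did not (65.6% against 15.3%). Of those 21 cells, 14 came from mA1 library 1, where the cells with Foxp3 were deeper (median 6339 against 3461 UMIs). Without mA1 library 1 the shares were 7 of 17 cells with Foxp3 (41.2%) and 153 of 948 others (16.1%).

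Counted as UMIs per cell, the order moved. Naive CD8 cells, with a median of 3400 to 4828 UMIs per library, passed naive CD4 cells, with 2577 to 3760, for Tcf7, Lef1, Bach2 and Foxo1. Regulatory cells passed NK cells for Id2, and activated CD4 cells passed naive CD4 cells for Bcl11b. The other 4 members kept their highest class.

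Clusters inside a class differed in their members, again without a test. The class of NK cells joined cluster 1, which led with Gzma and Prf1, and cluster 8, which led with Ccl4, Xcl1 and Itgax. Tcf7 had 95.85 and 105 CPM in cluster 8 of the mA1 libraries and 100 and 122.5 CPM in the Con libraries, against 22.55 and 13.2 CPM (mA1) and 15.4 and 17.8 CPM (Con) in cluster 1. The 2 clusters did not overlap for Tcf7 or Satb1, whereas Id2 overlapped. Among effector and memory CD8 cells, cluster 11, led by Gzmk and Cx3cr1, had 686 and 691.5 CPM of Id2 in the mA1 libraries and 480 and 701 CPM in the Con libraries. Cluster 7, led by Gzmm and Cd160, had 253 and 213.5 CPM (mA1) and 203 and 365 CPM (Con).

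The same 2 CD8 clusters parted the other way for Satb1, at 58.6 and 76.8 CPM (mA1) and 58.4 and 80.4 CPM (Con) in cluster 11 and between 298 and 388 CPM in cluster 7. Tcf7, a gene that marks memory precursors among CD8 cells, was also lower in cluster 11 (152 and 205 CPM in mA1, 208 and 167.5 CPM in Con) than in cluster 7 (285 and 274.5 CPM in mA1, 357 and 319 CPM in Con). Bcl11b was higher in cluster 11 (334 and 371 CPM in mA1, 279 and 319 CPM in Con) than in cluster 7 (149 and 139 CPM in mA1, 172 and 154 CPM in Con). Activated CD4 cluster 5, led by Tbc1d4, Izumo1r and Cxcr3, had more Tcf7, Ikzf2 and Id3 than cluster 4, led by Ccr6 and Tnfsf11, in each of the 4 libraries. Gamma-delta cluster 12, led by Trdv4 and Il17a, had 427 and 350 CPM of Ikzf2 (mA1) and 415 and 467 CPM (Con), and cluster 13 had 264 and 160 CPM (mA1) and 295 and 88.3 CPM (Con). Tcf7 was lower in cluster 12 than in cluster 13 in each library.

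**Figure D2:**
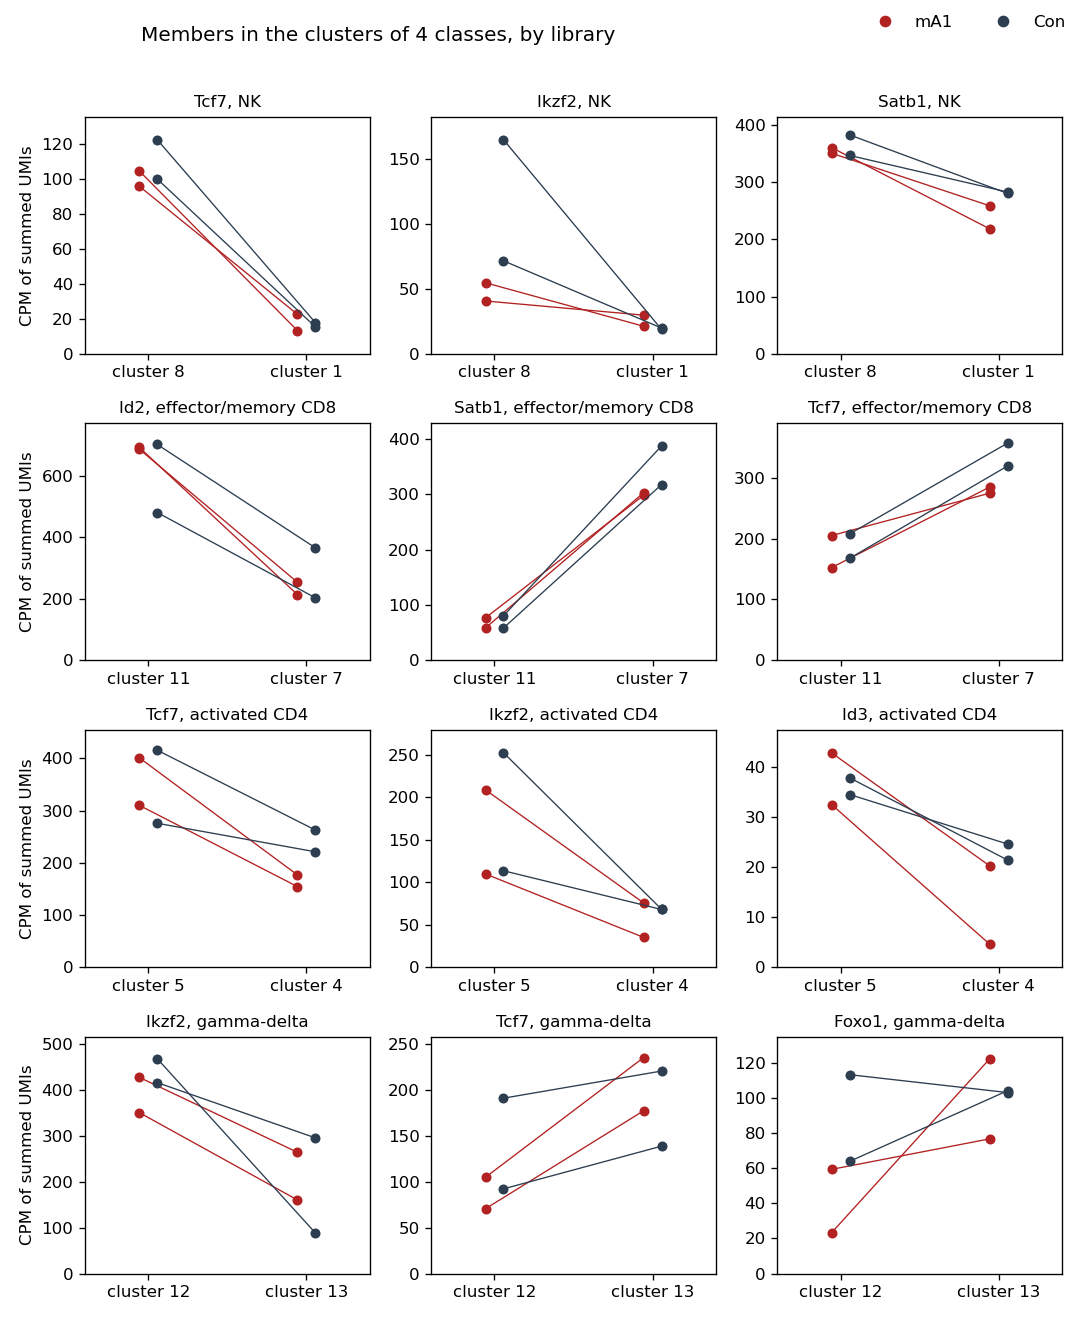
CPM of 3 members in each of 4 classes, by cluster. Each line joins the values of 1 library, red for mA1 and dark for Con, on linear axes that start at 0. Tcf7 in NK cells, Id2 and Satb1 in effector and memory CD8 cells and Ikzf2 in gamma-delta cells separate the clusters in all 4 libraries, while Foxo1 in gamma-delta cells does not keep one direction.

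Likeness was measured as Pearson's r of log2(CPM + 1) over 28 points, 7 classes in 4 libraries, among 6925 genes with at least 20 CPM in some class. The points share libraries, depth and classes, so r describes this set and has no p. Bcl11b was most like Plcg1 (0.962), Cd3d (0.961) and Cd3g (0.957), a signalling enzyme and chains of the T cell receptor complex. Foxp3 was most like Itgb8 (0.951), Ebi3 (0.908) and Sdf4 (0.906), and Ikzf2 was most like Gm28112 (0.923), Srgn (0.902) and Tnfaip3 (0.9). Cd3d, Cd3g and Ebi3 are among the markers used to select or name the cells, so they are not independent of the classes. Id2 was most like Lgals1, Uqcrb and Cyba, with r between 0.955 and 0.962.

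For Satb1 the nearest genes were Sgk3 (0.925), Foxp1 (0.89) and the member Bach2 (0.863), and for Bach2 they were Evl (0.869), Znrf3 (0.867) and Satb1. Lef1 was most like Klhdc1, Smc4 and Gm14085 (0.893 to 0.9), and Tcf7 was most like Rpl13a (0.915), Rpl23a and Dtx1 (0.875 each), so that ribosomal protein genes stand beside it. Foxo1 was most like Gm12840 (0.819), Prkd2 (0.793) and Trib2 (0.781). Id3, the lowest member, reached 0.788 with Gfer, 0.768 with Ddx6 and 0.752 with Rpl9-ps6. Among members, Id2 had r of -0.86 with Lef1 and -0.67 with Tcf7.

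The comparison of mA1 with Con asked whether tumours with Malat1-directed activation differ in these factors within a class. No member passed edgeR's quasi-likelihood test at an adjusted p under 0.05 in any of the 7 classes or in the pooled alpha-beta T cells, and DESeq2 called 0 members too. At an unadjusted p under 0.05 there was 1 member each in naive CD4, naive CD8, effector and memory CD8 and pooled cells, and 0 in the other classes. The share of all genes at that threshold was 8.84% in naive CD4, 9.82% in naive CD8, 9.74% in effector and memory CD8 and 10.5% in pooled cells, so 1 of 7 to 10 members is near it. It was 9.07% in activated CD4, 9.49% in NK, 3.13% in regulatory and 3.41% in gamma-delta cells. The share of all genes called at an adjusted p under 0.05 was 0.22% in naive CD4, 0.0312% in naive CD8, 0.109% in activated CD4 and 0.292% in NK cells. It was 0% in regulatory, effector and memory CD8 and gamma-delta cells, with 72, 317 and 145 genes at an unadjusted p under 0.05 and 0 calls by DESeq2 in each, and 0.012% in the pooled cells. Samples were the 8 tumours, except in regulatory and gamma-delta cells, where some tumours held under 20 cells and the 4 libraries were used. mA1 library 2 holds 19 regulatory cells. The low-count filter left 6 to 8 members in a class and all 10 in the pooled cells. Fold changes below are log2 ratios of mA1 over Con with their standard errors.

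In naive CD4 cells 6 of 8 tested members lay below 0, with log2 ratios between -0.47 and 0.08. Tcf7 had 410.5, 452, 439 and 441 CPM in the mA1 tumours and 525, 501.5, 519 and 576.5 CPM in the Con tumours. The groups did not overlap, and the log2 ratio was -0.19 ± 0.11 (edgeR adjusted p = 0.584). Foxo1 did not overlap either, with 99.7, 101, 104 and 104 CPM in mA1 tumours and 113, 135, 129 and 142 CPM in Con tumours and a log2 ratio of -0.28 ± 0.16 (edgeR adjusted p = 0.596). Of all genes tested in these cells, 4.39% did not overlap between the groups, 34 of them higher and 146 lower in mA1. Most genes without overlap thus lay on the side of Tcf7 and Foxo1. Overlap was read from CPM, without the scaling between samples that enters the log2 ratios. Satb1 had the smallest p of the members, with 608, 582, 513 and 474 CPM in mA1 tumours and 632, 602, 809 and 751 CPM in Con tumours, and 1 mA1 tumour overlapped the Con range. Its log2 ratio was -0.28 ± 0.10 (edgeR adjusted p = 0.364, unadjusted 0.00760). The 2 highest Con values of Satb1 are the tumours of Con library 2, and its log2 ratio was -0.37 (adjusted p = 0.0292) without Con library 1 and -0.13 (adjusted p = 0.984) without Con library 2. Each of these fits leaves 1 library in Con, whose 2 tumours then stand as its samples. More genes were called in these cells without Con library 1 than with any other library or tumour left out. Naive CD4 cells join clusters 3 and 6, and cluster 3 made up 48.3% and 48.1% of them in the mA1 libraries and 32.75% and 77.3% in the Con libraries. Satb1 had 667 and 575.5 CPM in cluster 3 of the mA1 libraries and 697 and 851 CPM in the Con libraries, and in cluster 6 it had 514 and 418 CPM (mA1) and 568 and 583 CPM (Con). Tcf7 had 454 and 498 CPM (mA1) and 616 and 565 CPM (Con) in cluster 3, and 417 and 382 CPM (mA1) and 452 and 433 CPM (Con) in cluster 6. Both genes were thus higher in cluster 3 than in cluster 6 in each library, and no test was run inside clusters.

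Lef1 in the same cells had 693.5, 633, 591.5 and 630.5 CPM in mA1 tumours and 614.5, 582, 760 and 696 CPM in Con tumours, a log2 ratio of 0.02 ± 0.10 (edgeR adjusted p = 0.9625). Without the filter on low counts it was -0.0091. Bach2 (-0.21 ± 0.20, edgeR adjusted p = 0.803) and Bcl11b (0.08 ± 0.11, edgeR adjusted p = 0.893) overlapped between groups too. Of the list of 20 genes of quiescence and homing, all 20 were tested in naive CD4 cells, 0 passed in either direction (6 at an unadjusted p under 0.05, where 8.84% of all genes lay), and the median log2 ratio was 0.00726 beside -0.000384 over all genes. The smallest p of that list belonged to Dapl1 (0.35 ± 0.14, edgeR adjusted p = 0.4235) and Btg2 (-0.27 ± 0.11, edgeR adjusted p = 0.437). The free-RNA list, transcripts of other cell types, had 1 of 5 tested genes lower in mA1: Igkc, an antibody light chain, at -0.75 ± 0.16 (edgeR adjusted p = 0.0231). Igkc and Clu were lower in mA1 in 3 classes each, naive CD4, activated CD4 and NK cells. With libraries as samples both calls in activated CD4 cells were lost (edgeR adjusted p = 0.468 for Igkc and 0.663 for Clu), and those in naive CD4 and NK cells held. Neither call in naive CD4 cells held without Con library 2 (edgeR adjusted p = 0.235 for Igkc and 0.521 for Clu). Both naive CD4 calls were also lost with DESeq2 and with limma voom, and that of Igkc with members kept in clustering. Without mA1 library 2, Igkc was lost in naive CD4 cells and both were lost in activated CD4 cells, and without Con library 2 Clu was lost there. Their part in the member values was not tested.

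In naive CD8 cells Tcf7 was again without overlap, at 364, 402, 304 and 357 CPM in mA1 tumours and 444.5, 430, 463 and 409 CPM in Con tumours. The share of all genes without overlap was 6.08% there, with 39 genes higher and 156 lower in mA1. Tcf7, named here after its values were seen, had a log2 ratio of -0.15 ± 0.13 (edgeR adjusted p = 0.758). Satb1 had 421, 392, 467 and 334 CPM in mA1 tumours and 444.5, 470, 549 and 605 CPM in Con tumours. Of the mA1 tumours 1 lay within the Con range, and the log2 ratio was -0.27 ± 0.13 (edgeR adjusted p = 0.466, unadjusted 0.0390). Ikzf2, too low there for the filter, had 7.13, 5.15, 0 and 0 CPM in mA1 tumours and 79.8, 7.42, 32.2 and 37.6 CPM in Con tumours, from 2, 2, 0 and 0 UMIs in mA1 tumours and 7, 3, 33 and 15 UMIs in Con tumours. It is named because alternatives called it, with a log2 ratio of -2.88 (edgeR adjusted p = 0.00266) without the filter. These calls rest on counts seen almost only in Con and are not taken as support for a difference.

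**Figure D3:**
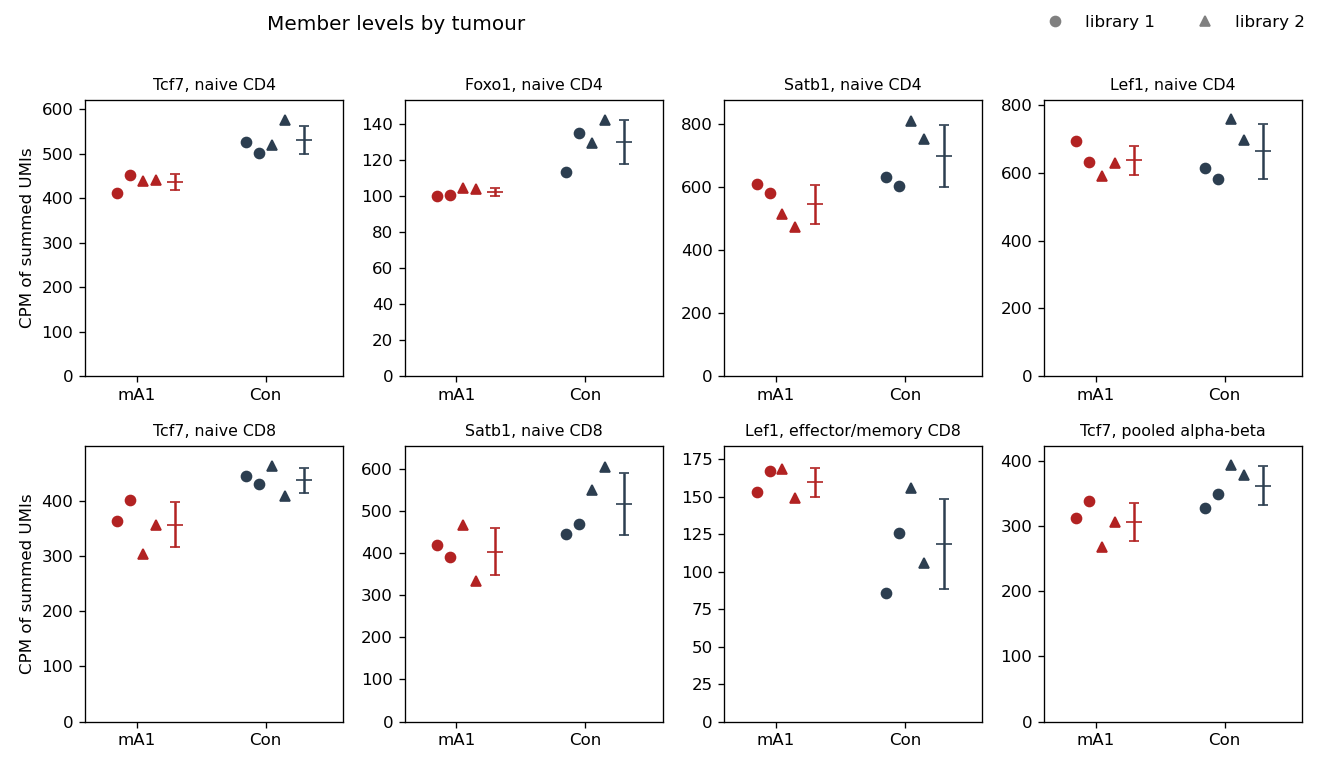
CPM of members in the 4 mA1 tumours (left) and the 4 Con tumours (right) of each panel, with mean and SD at the side, circles for library 1 and triangles for library 2. Tcf7 and Foxo1 in naive CD4 cells and Tcf7 in naive CD8 cells do not overlap between groups; the other panels do.

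In effector and memory CD8 cells Lef1 had 153, 168, 169 and 149 CPM in mA1 tumours and 85.7, 126, 156 and 106 CPM in Con tumours. Only 1 Con tumour reached the mA1 range, and the log2 ratio was 0.43 ± 0.17 (edgeR adjusted p = 0.439, unadjusted 0.0165). The other 6 members tested there lay between -0.22 and 0.03. In NK cells Id2 had 1366, 1261, 865 and 1181 CPM in mA1 tumours and 945, 1029, 1192 and 1237 CPM in Con tumours (log2 ratio 0.11 ± 0.11, edgeR adjusted p = 0.801). In NK cells 5 of the 7 members tested lay above 0, up to 0.46 for Tcf7 (edgeR adjusted p = 0.584), whose ratio was 0.20 without Con library 2. Cluster 8, the one with more Tcf7, made up 24.95% and 30.1% of NK cells in the mA1 libraries and 21.7% and 11.7% in the Con libraries. The Tcf7 values inside clusters 8 and 1 are given above. Those of cluster 1 rest on 17 and 4 UMIs in the mA1 libraries and 9 and 35 UMIs in the Con libraries. The part of the cluster mix in the Tcf7 ratio was not tested. Of 16 tested immediate early and dissociation genes, 3 were lower in mA1 NK cells, Fos (-0.82), Egr1 (-1.16) and Btg2 (-0.53). The median of that list was -0.415 against 0.00538 over all genes. None of these 3 calls held with libraries as samples (edgeR adjusted p = 0.0891, 0.113 and 0.5997) or without mA1 library 1, and that of Egr1 was also lost without Con library 2 (-0.60). DESeq2 did not call Egr1 or Btg2. The part of these genes in the member values was not tested.

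In regulatory cells Foxp3 had a log2 ratio of -0.42 ± 0.29 over libraries (edgeR adjusted p = 0.999), with the 4 library values given above. By tumour it had 260, 295, 193 and 262 CPM in mA1 and 301, 366, 366 and 211 CPM in Con, from 6 to 34 cells each, and the groups overlapped. The ratio was -0.65 without mA1 library 1 and -0.24 without mA1 library 2, and -0.49 without Con library 2, which stands apart by Xist. Ikzf2 had -0.10 ± 0.21 (edgeR adjusted p = 0.999) in the same cells. Of 22 regulatory T cell genes 14 were tested and 0 passed in either direction, with 4 at an unadjusted p under 0.05, where 3.13% of all genes lay. The smallest p belonged to Il2ra (-0.93 ± 0.29) and Ctla4 (-0.75 ± 0.24), with an edgeR adjusted p of 0.999 each. The 6 members tested in gamma-delta cells lay between -0.37 and -0.01, and the 8 tested in activated CD4 cells between -0.34 and 0.27, where Satb1 held the highest value. Without Con library 1, Satb1 in activated CD4 cells, named after its values were seen, had a log2 ratio of 0.67 (edgeR adjusted p = 0.0243), and without Con library 2 it had -0.21. Each of these fits leaves 1 library in Con. More genes were called in activated CD4 cells without Con library 1 than with any other library or tumour left out. Cluster 4, which held more Satb1 than cluster 5 in each library, made up 57.2% and 53.8% of these cells in the mA1 libraries and 62.3% and 40.4% in the Con libraries. The difference of this ratio from that in naive CD4 cells was not tested.

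**Figure D4:**
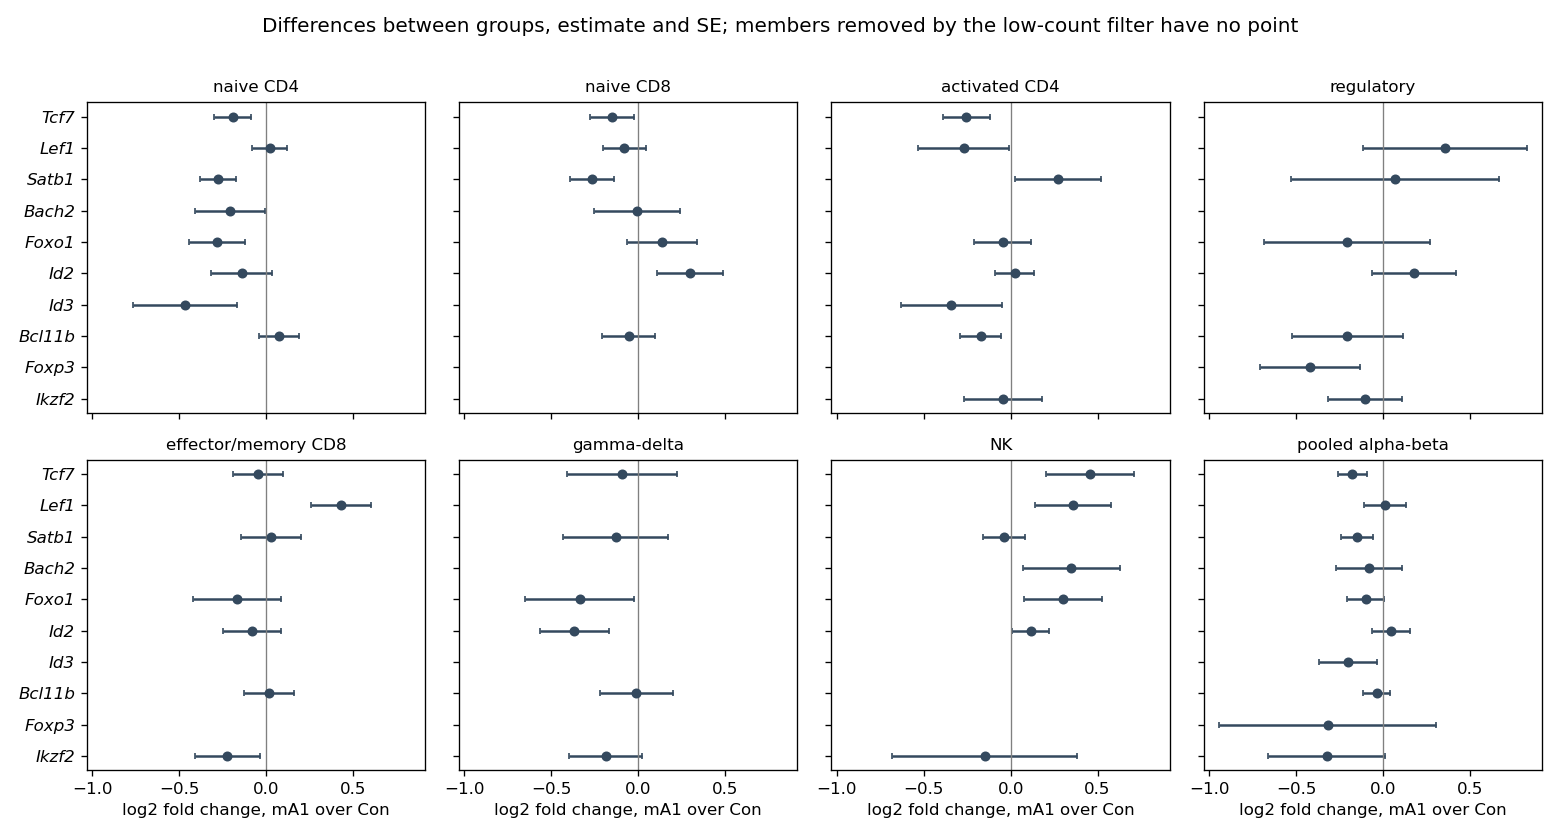
Log2 fold change of each tested member, mA1 over Con, with its SE, in 7 classes and the pooled alpha-beta T cells. A point right of 0 is higher in mA1. The widest intervals are those of Foxp3 in the pooled cells and of Satb1 in regulatory cells.

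In the pooled alpha-beta T cells, where the mixture of states can move a level, 8 of 10 members lay below 0. Tcf7 had 313, 339, 269 and 306 CPM in mA1 tumours and 327, 349, 393 and 379 CPM in Con tumours, a log2 ratio of -0.18 ± 0.08 (edgeR adjusted p = 0.464, unadjusted 0.0459). It was -0.28 without mA1 library 1 and -0.079 without mA1 library 2. Of the mA1 tumours 1 lay within the Con range. Satb1 (-0.15 ± 0.09), Foxo1 (-0.10 ± 0.11), Bach2 (-0.08 ± 0.19) and Bcl11b (-0.04 ± 0.08) had edgeR adjusted p values of 0.603, 0.781, 0.931 and 0.924. Id3 (-0.20 ± 0.17) had an edgeR adjusted p of 0.704. Lef1 (0.01 ± 0.12) and Id2 (0.05 ± 0.11) lay above 0, with edgeR adjusted p of 0.995 and 0.933. Foxp3 (-0.32 ± 0.62) and Ikzf2 (-0.32 ± 0.34) had the widest errors, with edgeR adjusted p of 0.916 and 0.795.

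Foxp3 in the pool had 9.185, 18.2, 10.3 and 11.8 CPM in mA1 tumours and 30.8, 30.2, 12.4 and 4.875 CPM in Con tumours. The tumours of Con library 1 lay above each mA1 tumour, and those of Con library 2 did not. Its log2 ratio was -1.205 without Con library 2 (edgeR adjusted p = 0.113) and 0.50 without Con library 1. The remaining lists were described in the same pool. Of 12 partners and cofactors of Tcf7 and Lef1, 10 were tested and 0 passed (1 at an unadjusted p under 0.05), with a median of -0.092 beside 0.00172 over all genes. The smallest p there belonged to the corepressors Tle3 (-0.42 ± 0.13, edgeR adjusted p = 0.287) and Tle4 (-0.15 ± 0.09, edgeR adjusted p = 0.608). Of 6 genes of the E protein and Id list, 5 were tested and 0 passed (0 at an unadjusted p under 0.05), with the smallest p for Tcf4 (0.49 ± 0.30, edgeR adjusted p = 0.577) and Il7r (-0.11 ± 0.07, edgeR adjusted p = 0.626). Of 39 other lineage and state factors, 35 were tested and 0 passed in the pool (7 at an unadjusted p under 0.05, where 10.5% of all genes lay). The smallest p there belonged to Prdm1, the effector factor Blimp-1, with -0.65 ± 0.20 (edgeR adjusted p = 0.287), and Rora, with -0.32 ± 0.11 (edgeR adjusted p = 0.3085). Klf6 of the same list, a zinc-finger factor, was lower in mA1 in activated CD4 cells (-0.51 ± 0.11, edgeR adjusted p = 0.0304) and in NK cells (-0.74 ± 0.13, edgeR adjusted p = 0.00173). With libraries as samples neither Klf6 call held (edgeR adjusted p = 0.862 in activated CD4 and 0.286 in NK cells). Without mA1 library 1 the Klf6 ratio was -0.46 and -0.41 in these classes with no call. The call in activated CD4 cells was also lost with DESeq2, with limma voom, without mA1 library 2 or without Con library 1, and it held in 8 of 22 alternatives. Il1rl1, the receptor of interleukin-33 found on tissue regulatory T cells, was the 1 gene of the regulatory list called in the pool, at -1.175 ± 0.20 (edgeR adjusted p = 0.0312). With libraries as samples the edgeR adjusted p of Il1rl1 was 0.138, and the call was also lost with limma voom, with the 10% mitochondrial limit, without mA1 library 1 (-0.80) and without Con library 2 (-1.25). Of 15 cytotoxic genes 0 passed in the pool (6 at an unadjusted p under 0.05, against the same 10.5%), where perforin, Prf1, had -0.545 ± 0.17 and Ctsw had 0.34 ± 0.11 (edgeR adjusted p = 0.287 each), and Ccl3 was lower in mA1 NK cells (-0.72 ± 0.12, edgeR adjusted p = 0.000158). With libraries as samples the edgeR adjusted p of Ccl3 was 0.0891, and without mA1 library 1 it was 0.186.

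The mixture of states was measured as well, among named cells only. The unnamed cells left out include a cluster with Lef1 between 553 and 719 CPM. It had 25 and 39 cells in the mA1 libraries and 35 and 36 cells in the Con libraries. Naive cells made up 53.5%, 50.1%, 41.4% and 44.7% of alpha-beta T cells in the mA1 tumours and 43.75%, 50.6%, 47.9% and 47.8% in the Con tumours. The means were 47.4 ± 5.43% in mA1 and 47.5 ± 2.83% in Con (SD, n = 4 each), and an exact two-sided permutation test over the 8 tumours gave p = 0.943. Regulatory cells made up 2.34%, 4.69%, 4.23% and 5.56% of CD4 T cells in mA1 tumours and 7.48%, 7.71%, 3.58% and 2.90% in Con tumours. Their means were 4.21 ± 1.36% in mA1 and 5.42 ± 2.53% in Con (SD, n = 4 each; exact two-sided permutation p = 0.429). The smallest p this test allows over the 8 tumours is 0.0286. The test treats them as separate samples, although they share a library in pairs. The Con tumours of library 1 were above every mA1 tumour in the share of regulatory cells, and both Con tumours of library 2 lay above 1 mA1 tumour only.

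**Figure D5:**
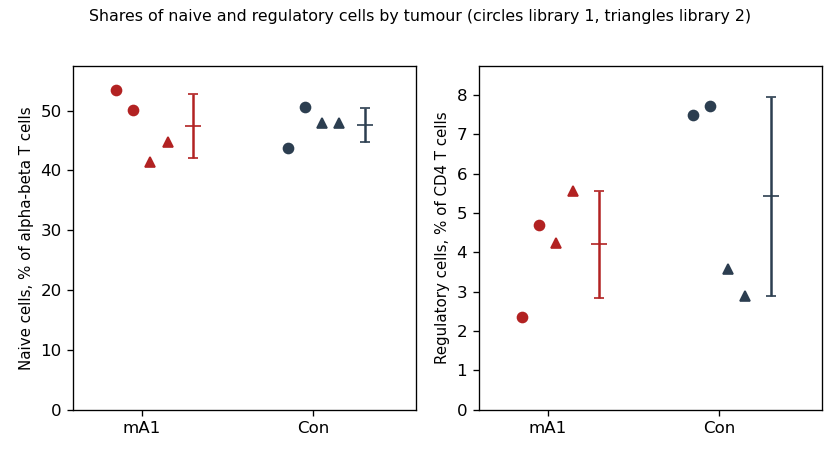
Naive cells as a percent of alpha-beta T cells and regulatory cells as a percent of CD4 T cells in the 4 mA1 tumours (left) and 4 Con tumours (right), with mean and SD, circles for library 1 and triangles for library 2. The groups overlap in both shares.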

How the data were processed

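The 4 libraries were made with the 10x 3' v3 kit, per the labels' protocols, and processed with Cell Ranger 6.0.1 on mm10, per the submitters' processing notes. The deposited matrices hold UMI counts per gene and cell barcode and hashtag counts per barcode. Library totals were 73377111 and 48319272 UMIs (mA1) and 74996867 and 54397659 UMIs (Con), of 10168, 4939, 8842 and 7135 barcodes.

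Cells with at least 500 UMIs and 250 genes and at most 15% mitochondrial UMIs were kept, cells with both hashtags were removed (298, 112, 301 and 209), and 88.6 to 94.1% of cells carried 1 hashtag. Scrublet (scanpy 1.11.5) marked 171, 31, 77 and 0 barcodes as doublets, so it did not work in Con library 2 and doublets there were removed by hashtags alone. Pairs of libraries share 89 to 269 barcodes. T and NK cells were clustered (Leiden, leidenalg 0.10.2, resolution 1.5) without the 10 members and named from marker sums by thresholds set after the clusters were seen. The members, lists and markers were chosen with earlier results of these data known.

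Counts were summed per class and tumour (at least 20 cells in each), or per library, and tested with edgeR 4.0.16 (R 4.3.3; quasi-likelihood, robust, TMM, low-count filter) over all genes, with Benjamini-Hochberg adjustment, beside DESeq2 1.42.0 and limma 3.58.1. Shares of cells were compared with an exact permutation test over tumours, and the Clopper-Pearson intervals came from scipy 1.17.1. A fold change is named for each member in its highest class over tumours (not for Id3, removed there by the low-count filter), in the pooled cells and where its unadjusted p was under 0.05. The others are given as ranges, except those said to be chosen later. List genes are named if they pass. Where none of a list does, the 2 with the smallest p are named in the class where the list is described. On simulated counts for naive CD4 cells, 92 of 92 genes changed 4-fold and 76 of 96 changed 2-fold were recovered among 3941 genes, and for gamma-delta cells 82 of 86 and 39 of 87 among 3915. Of the genes called, 10 of 178 and 6 of 127 were false. The simulated samples had no library effect shared by tumours and no change under 2-fold, so recovery of the smaller member ratios was not measured. Alternatives are in the closing section. Intervals cover counting error only.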

Additional observations from a re-analysis of the deposited data

Results flagged for a closer look

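Of 48 groups of 4 tumours examined for a tumour far from the others, 2 had one, and chance flags about 1 in 20. Bach2 in naive CD4 cells had 55.1 CPM (55.09, from 18 UMIs) in mA1 library 2 hashtag 2, below the 65.0, 66.5 and 67.0 CPM of the other mA1 tumours, and its gap to the nearest was 0.83 of the group's range. Ikzf2 in the pooled alpha-beta T cells had 141 CPM, from 326 UMIs, in mA1 library 1 hashtag 2, above the 90.9, 93.3 and 93.5 CPM of the other mA1 tumours, with a gap of 0.948 of the range.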

How the results depend on the processing

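Of 440 comparisons of a member's fold change with an alternative, over 21 results, 408 kept direction and side of the threshold, 31 changed sign and 1 passed it: Satb1 in naive CD4 cells, at -0.37 (edgeR adjusted p = 0.0292) without Con library 1. Fold changes of opposite sign were Lef1 in naive CD4 cells at -0.0091 without the filter on low counts, Lef1 in the pooled cells at -0.0035 without the filter, -0.026 with libraries as samples and -0.0047 with limma voom, and Foxp3 in the pooled cells at 0.0089 with limma voom. The share of naive cells differed by 0.139 percentage points with a 10% mitochondrial limit and by 1.295 with members kept in clustering. The cause was not tested.

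With single libraries or tumours left out, log2 ratios ranged from -0.28 to -0.079 (Tcf7, pooled), -0.051 to 0.131 (Lef1, naive CD4), -0.20 to 0.19 (Lef1, pooled), -0.339 to 0.0172 (Satb1, pooled), -0.43 to 0.14 (Bach2, pooled), -0.0659 to 0.256 (Id2, NK), -0.10 to 0.16 (Id2, pooled), -0.0906 to 0.0236 (Bcl11b, pooled), -1.205 to 0.50 (Foxp3, pooled), -0.44 to 0.15 (Ikzf2, regulatory) and -0.81 to 0.18 (Ikzf2, pooled), and the naive share difference from -2.143 to 1.903 points. Genes called ranged from 1 to 109 in naive CD4, 0 to 134 in naive CD8, 0 to 101 in activated CD4, 1 to 18 in regulatory, 0 to 103 in effector and memory CD8, 4 to 19 in gamma-delta, 4 to 169 in NK and 0 to 251 in pooled cells. Except in regulatory cells, where it was without mA1 library 2, the highest count was without Con library 1. Members called ranged from 0 to 1 in naive CD4 (Satb1), naive CD8 (Ikzf2) and activated CD4 cells (Satb1), 1 being without Con library 1. The Con group then holds 1 library.

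Against 9, 1, 6, 0, 0, 0, 17 and 1 genes called in naive CD4, naive CD8, activated CD4, regulatory, effector and memory CD8, gamma-delta, NK and pooled cells, there were 14, 11, 26, 3, 4, 5, 34 and 66 without the filter. DESeq2 called 1 in naive CD4, 2 in naive CD8, 10 in NK and 4 in pooled cells. Libraries as samples gave 4, 6, 0, 3 and 0 in naive CD4, naive CD8, activated CD4, NK and pooled cells. limma voom gave 2 in naive CD4 and 0 in pooled cells, members kept in clustering 4 in naive CD4, the higher clustering resolution 2 in naive CD8 and 3 in pooled cells, and the 10% mitochondrial limit 0 in pooled cells. In naive CD8 cells 1 member, Ikzf2, was called without the filter and with libraries as samples. Its UMIs there were 4 and 0 in the mA1 libraries and 10 and 48 in the Con libraries. Where the filter was used, Ikzf2 thus entered the test through its Con values only, and its calls are not taken as support for a difference. By UMIs per cell, 4 of 10 members kept their highest class.

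The replicate numbers of the labels did not pair the samples: deviations of same-numbered samples correlated between -0.0847 and 0.0363. With the replicate block 12 genes were called in naive CD8, 10 in activated CD4, 2 in regulatory, 3 in gamma-delta and 17 in pooled cells, 8 in naive CD4 and 18 in NK cells, and 0 members in each. The limits of depth are the 19 to 45 regulatory cells per library and the low counts of Bach2 and Id3. Alternatives without shared barcodes and with gamma-delta tumours of 15 cells or more were chosen after seeing the data.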

Other observations

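A cluster of 43 cells that was left unnamed led with Myb, Epcam, Sox4, Id3 and Pou2af1. Id3, low in the 7 named classes, had 348 and 145 CPM there in the mA1 libraries and 319 and 253 CPM in the Con libraries. Tcf7 had 323 and 314 CPM in the mA1 libraries and 683 and 793 CPM in the Con libraries, from 10 and 11 cells (mA1) and 7 and 15 cells (Con). Id2 was low, at 24.9 and 72.4 CPM (mA1) and 0 and 77.1 CPM (Con). An unnamed cluster of 338 cells, led by Fam83a and with Zbtb16, the factor of innate-like T cells, among its 10 leading genes, had 582 and 839 CPM of Id2 in the mA1 libraries and 919 and 903 CPM in the Con libraries. Ikzf2 in the same cluster had 261 and 300 CPM (mA1) and 311 and 274 CPM (Con), and Id3 was at or below 5.80 CPM in each library.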
